A study of Mus musculus with 24 samples.

Results

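A set of 35 genes encodes enzymes, a transporter and receptors of sphingolipid metabolism and sphingosine-1-phosphate (S1P) signalling, out of 55421 genes counted by RNA sequencing. They were chosen by gene symbol and known role, and each was found in the count table by its Ensembl identifier. Of the 35 genes, 34 passed the filter on low counts. The exception was Sgpp2, an S1P phosphatase, which had 0 to 11 counts summed over the 6 libraries of a group and was not tested. A group without a count, as in wildtype LPS, allows up to 3 counts in all.

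Bone marrow-derived macrophages (BMDMs) of wildtype C57/B6/J mice and of AhR-deficient mice were grown in 10% serum with GM-CSF at 10 ng/ml and TGF-β at 2 ng/ml, conditions meant to give alveolar-like macrophages. The AhR-deficient mice carried the germline allele Ahr tm1Bra, which disrupts the aryl hydrocarbon receptor (AhR), a ligand-activated transcription factor, in all cells. On day 6 the cells were left unstimulated or received 97 EU/ml lipopolysaccharide (LPS), a ligand of Toll-like receptor 4, for 24 h. The Ca2+ ionophore A23187 was then added at 5 µM for 10 min, a step named, as LPS is, in 1 treatment text shared by all libraries, which does not say separately what unstimulated cells received. The study describes adult mice of both sexes, matched for age and sex, and each of the 4 groups (wildtype unstimulated, wildtype LPS, AhR-deficient unstimulated, AhR-deficient LPS) had 6 libraries. Which stimulated and unstimulated libraries shared an animal is not given in the sources used here, so animals were not paired.

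Sphingolipids are membrane lipids built on a long-chain base. Serine palmitoyltransferase starts their synthesis, ceramide is the hub from which sphingomyelin, ceramide phosphate and glycosphingolipids are made, and breakdown of ceramide gives sphingosine, which sphingosine kinases turn into S1P. S1P leaves the cell through transporters and acts on G protein-coupled receptors that guide the migration and activation of immune cells, and it is removed by a lyase and by phosphatases.

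The libraries held between 45106052 and 76992663 counts each. The biological coefficient of variation was 49.1%, so the spread between libraries exceeded counting error for all but the least abundant genes. Libraries differed most in how strongly the level of a gene depended on its length: the slope of log2 CPM (CPM being counts scaled to the size of the library with TMM factors) on log2 gene length ran from 0.136 to 0.741. Library 33 (wildtype unstimulated, slope 0.168) and library 19 (AhR-deficient unstimulated, slope 0.136) stood apart from the other libraries of their groups, and results that depended on them are given with and without both. Library 33 was the lowest or the highest of its group for 30 of the 34 genes, library 39 (AhR-deficient LPS) for 26, and libraries 19 and 37 (wildtype LPS) for 23 each. Library 34 (wildtype unstimulated) and library 38 (wildtype LPS) had no Y-linked counts above background, and all AhR-deficient libraries had such counts, so these libraries were not balanced for sex between the genotypes. Ahr itself was at a median of 30.7 CPM in wildtype unstimulated, 18 in wildtype LPS, 7.40 in AhR-deficient unstimulated and 39.2 in AhR-deficient LPS libraries. These are counts over all exons of Ahr, in which a transcript with the disrupted exon cannot be told from an intact one, so they do not check the genotype labels.

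**Figure D1:**
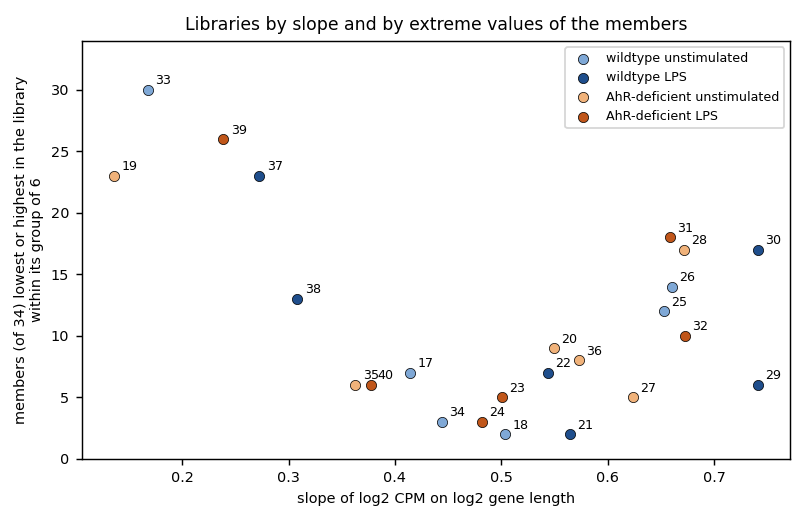
Each point is 1 of the 24 libraries. The x axis is the slope of log2 CPM on log2 gene length, the y axis the number of the 34 genes for which the library was the lowest or the highest of its group of 6, and colours mark the groups. Libraries 33, 39, 19 and 37 had slopes under 0.3 and were extreme for 23 to 30 genes.

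The 8 macrophage markers were present in every group, with summed medians between 17800 and 29300 CPM. Lyz2 alone had group means between 13690 and 26480 CPM, and Mertk between 27.98 and 55.04 CPM. The 8 markers of alveolar macrophages were present in every group too. After LPS, 1 of these 8 rose (Car4) and 4 fell in wildtype, and 1 rose (Car4) and 3 fell in AhR-deficient BMDMs. Siglecf, which fell in both, had a mean of 62.0 CPM in wildtype unstimulated and 184 CPM in AhR-deficient unstimulated libraries, and 7.43 and 12.2 CPM after LPS. Car4 went from 874 to 1832 CPM in wildtype and from 1236 to 3674 CPM in AhR-deficient BMDMs. Among 8 dendritic cell markers, the summed level had a median of 95.5 CPM in wildtype unstimulated, 1450 CPM in wildtype LPS, 23.5 CPM in AhR-deficient unstimulated and 260.0 CPM in AhR-deficient LPS libraries. T and NK cell markers summed to at most 0.955 CPM and B cell markers to at most 0.347 CPM in any library. In bulk RNA, fewer cells of a type and less RNA per cell cannot be told apart.

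LPS changed the sphingolipid genes in both directions. In wildtype BMDMs, 4 genes rose (Sgms2, S1pr1, Smpdl3b and Sphk1) and 6 fell (S1pr4, Kdsr, Galc, Sptssa, Sgpp1 and Cers5) by the thresholds for differentially expressed genes (DEGs), that is, at least a 2-fold change with an adjusted p no higher than 0.05. The 10 DEGs were 29.4% of the 34 genes tested, against 24.9% of all 16593 genes (13.2% higher and 11.8% lower). In AhR-deficient BMDMs the same 10 genes changed in the same directions, and Sphk2 rose and Cerk, Smpd2 and Spns2 fell in addition. These 14 DEGs were 41.2% of the genes tested, against 30.8% of all genes (15.1% higher and 15.7% lower). Neither share was set against chance, and the share in wildtype was near that of all genes.

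The median log2 fold change of the 34 genes after LPS was -0.04 in wildtype and -0.06 in AhR-deficient BMDMs, against 0.03 and -0.03 over all genes. Without the 2-fold minimum, 18 genes (9 higher, 9 lower) passed the adjusted p in wildtype, where 38% of all genes did, and 19 (8 higher, 11 lower) in AhR-deficient BMDMs, where 44.6% did. The LPS-stimulated and unstimulated libraries did not overlap for 9 genes in wildtype (22.4% of all genes) and for 14 in AhR-deficient BMDMs (28.5% of all genes). The libraries fall into 3 blocks of 8 consecutive library numbers with 2 libraries per group each, which no label calls batches. The 26 DEG results of the 34 genes, over the LPS and genotype comparisons together, had the same sign in all 3 blocks, which is a description only, since they were called on the same libraries.

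**Figure D2:**
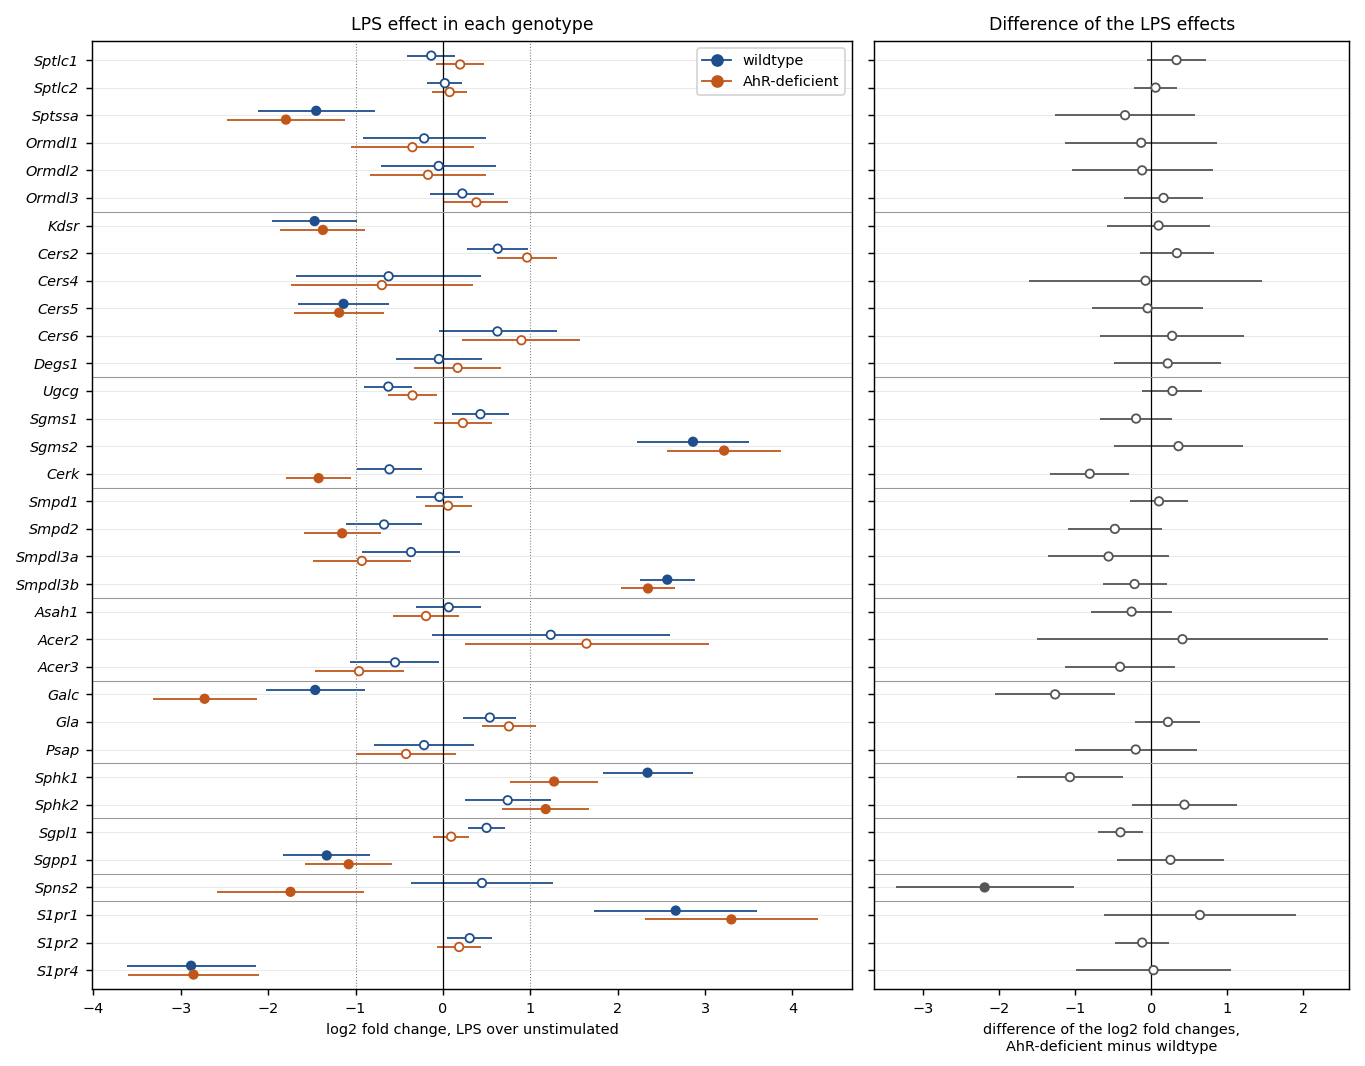
Left, log2 fold change of LPS over unstimulated for the 34 genes tested, in wildtype (blue) and AhR-deficient (orange) BMDMs, with 95% intervals and filled points for DEGs. Right, the difference of these fold changes (AhR-deficient minus wildtype) with its 95% interval. Sgms2, S1pr1, Smpdl3b and Sphk1 lie at 1.27 or more in both genotypes and S1pr4 at -2.86 or less, while the differences lie near 0 for most genes and Spns2 is the lowest at -2.19.

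Promoter sequence is shown for the genes with the largest increases and decreases after LPS in wildtype, to place letters beside the strongest responses. The rule took Sgms2, S1pr1, S1pr4 and Kdsr by their log2 fold changes over all libraries. The sequences are from RefSeq on GRCm38.p6 (mm10), on the minus strand, and end just before the transcription start or, for Sgms2, before 32 bases that lie in an annotated exon. For Sgms2 the start nearest the principal transcript was taken, 1 of 6 starts. The windows are chr3:131344941-131345158 for Sgms2 (218 bases, 45.9% G and C), chr10:81500138-81500387 for S1pr4 (250 bases, 38.8%) and chr1:106759743-106759992 for Kdsr (250 bases, 61.6%). Capitals mark CACGC, which is the AhR core motif GCGTG read on the other strand.
Sgms2: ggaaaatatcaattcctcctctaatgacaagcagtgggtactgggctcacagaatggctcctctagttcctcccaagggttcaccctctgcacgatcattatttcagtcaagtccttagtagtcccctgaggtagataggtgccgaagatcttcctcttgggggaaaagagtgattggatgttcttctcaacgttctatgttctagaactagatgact
S1pr4: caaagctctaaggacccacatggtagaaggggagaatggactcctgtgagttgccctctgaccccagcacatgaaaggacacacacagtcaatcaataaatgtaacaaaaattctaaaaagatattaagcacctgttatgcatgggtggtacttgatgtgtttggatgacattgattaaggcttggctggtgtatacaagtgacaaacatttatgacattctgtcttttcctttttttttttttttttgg
Kdsr: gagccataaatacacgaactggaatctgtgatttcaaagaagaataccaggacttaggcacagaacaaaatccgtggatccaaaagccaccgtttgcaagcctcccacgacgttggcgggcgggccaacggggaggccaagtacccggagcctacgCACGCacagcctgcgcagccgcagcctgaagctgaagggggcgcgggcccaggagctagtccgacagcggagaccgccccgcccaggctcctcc
The AhR core GCGTG was searched on both strands, as were 4 other motifs. The AP-1 site was searched as TGANTCA. The TATA box was searched as TATAAA. The interferon response element (GAAA, any 2 bases and GAAA again) and the kappa B consensus were searched too, and none of the 5 motifs contains another. The only match in these 3 windows was the AhR core in Kdsr, 94 to 90 bases before the start. Over all 32851 promoter windows of the table, cut at 250 bases before the start, the AhR core was in 28.2%, the AP-1 site in 6.75%, the interferon response element in 2.98%, the kappa B consensus in 7.25% and the TATA box in 12.4%. Of the 48 windows of the 32 sphingolipid genes with an entry, 25 (52.1%) held the AhR core, 7 (14.6%) the AP-1 site, 0 the interferon response element, 6 (12.5%) the kappa B consensus and 1 (2.08%) the TATA box. Windows of 1 gene can overlap, GCGTG is short and rich in G and C, and a match is a description of letters only.

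Serine palmitoyltransferase makes the first sphingolipid intermediate, and 1 of its 6 subunit and regulator genes was a DEG. Sptssa (ENSMUSG00000044408), a small activating subunit, fell after LPS in both genotypes. In wildtype BMDMs, Sptssa ran from 137 to 411 CPM (median 206.5) without stimulation and from 53.7 to 147 CPM (median 62.9) after LPS. In AhR-deficient BMDMs, Sptssa ran from 122 to 388 CPM (median 150.6) and from 30.7 to 91.8 CPM (median 51.9). Library 33 and library 19 were the highest of the unstimulated groups and libraries 37 and 39 the highest after LPS, and the groups overlapped in wildtype through library 37 only. Sptssa changed by -1.45 on the log2 scale in wildtype (standard error, SE, 0.34, adjusted p = 0.0015) and -1.80 in AhR-deficient BMDMs (SE 0.34, adjusted p = 0.00014). Without libraries 33 and 19 it was -1.18 and -1.48, and both remained DEGs.

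The catalytic subunits Sptlc1 and Sptlc2 and the inhibitory regulators Ormdl1, Ormdl2 and Ormdl3 did not pass the adjusted p in any comparison. Sptlc2 had means of 171.8 ± 15.0 CPM (SD, n = 6) in wildtype unstimulated and 174 ± 20.7 CPM in wildtype LPS, and 171 ± 15.8 and 180.1 ± 16.6 CPM in AhR-deficient libraries. Its LPS effects had log2 fold changes of 0.02 and 0.08. Sptlc1 stayed within group means of 65.0 to 85.2 CPM. Per length (RPKM, CPM per kilobase of exon), Ormdl2 made up 67.4% to 70.6% of the summed level of the 3 Ormdl genes in the 4 groups. The exons of Ormdl2 share 66.7% of their bases with Dnajc14 on the other strand, and the counting was strand-specific. Ormdl1 shares 8.72% of its exon bases with Gm28778, and Sptssa 5.27% with Mir1892, on the same strand, where reads of the genes cannot be told apart.

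Of the ceramide synthesis genes, Kdsr and Cers5 fell in both genotypes and none was a DEG in the other direction. Kdsr (ENSMUSG00000009905), which reduces the first intermediate 3-ketodihydrosphingosine, fell in both genotypes. In wildtype BMDMs, Kdsr ran from 8.15 to 15.2 CPM (median 14.4) without stimulation and from 2.47 to 6.36 CPM (median 5.48) after LPS. In AhR-deficient BMDMs, the ranges were 9.52 to 16.95 CPM (median 14) and 3.90 to 8.10 CPM (median 4.43). All unstimulated libraries were above all LPS libraries in both genotypes, although library 33 and library 19 were the lowest unstimulated ones. Kdsr changed by -1.47 on the log2 scale (SE 0.25, adjusted p = 4.4e-05) in wildtype and -1.37 (SE 0.25, adjusted p = 7.3e-05) in AhR-deficient BMDMs.

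Cers5 (ENSMUSG00000023021), a ceramide synthase that attaches mainly palmitoyl chains, fell as well. In wildtype BMDMs, Cers5 ran from 87.4 to 203.5 CPM (median 114) without stimulation and from 40.01 to 84.6 CPM (median 47.7) after LPS. In AhR-deficient BMDMs, Cers5 ran from 89.5 to 189.6 CPM (median 105) and from 33.6 to 87.2 CPM (median 49.3). The groups did not overlap in either genotype, and libraries 33 and 19 were the highest of theirs. Cers5 changed by -1.14 on the log2 scale (SE 0.27, adjusted p = 0.0014) in wildtype and -1.19 (SE 0.27, adjusted p = 0.00074) in AhR-deficient BMDMs. Without library 33 the value in wildtype was -0.92 (adjusted p = 0.0061), under the 2-fold minimum, and without both libraries it was -0.92 in wildtype (no DEG) and -1 in AhR-deficient BMDMs (a DEG).

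Cers2, the synthase of very-long-chain ceramides, rose, in all libraries together by less than the 2-fold minimum. Its mean went from 153.8 ± 37.9 to 238 ± 48.7 CPM in wildtype (log2 fold change 0.63, adjusted p = 0.0066) and from 161 ± 30.4 to 313 ± 71.7 CPM in AhR-deficient BMDMs (0.96, adjusted p = 9.3e-05). Without libraries 33 and 19 the value in AhR-deficient BMDMs was 1.04 (adjusted p = 2.05e-05), which made Cers2 a DEG. Per length, the Cers2 share of the ceramide synthases measured was 50.4% ± 1.36 (SD, n = 6) in wildtype unstimulated and 71.0% ± 2.96 in wildtype LPS libraries. In AhR-deficient libraries the share was 52.9% ± 2.46 and 77.8% ± 1.13. The share of Cers5 was 40.8% and 17% in wildtype, and 40.6% and 13.4% in AhR-deficient libraries. For both synthases the shares of LPS and unstimulated libraries did not overlap in either genotype.

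Cers6 went from 42.9 ± 18.9 to 79.9 ± 17.4 CPM in AhR-deficient BMDMs (log2 fold change 0.90, adjusted p = 0.038), and in wildtype its log2 fold change was 0.62 with an adjusted p of 0.166. Cers4 had group means of 0.195 to 0.522 CPM and did not pass the adjusted p. Degs1, the desaturase that turns dihydroceramide into ceramide, had means between 279 and 314 CPM in the 4 groups and log2 fold changes of -0.05 and 0.17 after LPS, with adjusted p of 0.911 and 0.634.

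Of the genes that use ceramide, Sgms2 rose and Cerk fell past the DEG thresholds in at least 1 genotype. Sgms2 (ENSMUSG00000050931, chr3:131318985-131491411), which makes sphingomyelin at the plasma membrane, rose in both genotypes. In wildtype BMDMs, Sgms2 ran from 6.39 to 13.7 CPM (median 7.36) without stimulation and from 23.7 to 101 CPM (median 54.9) after LPS. In AhR-deficient BMDMs, Sgms2 ran from 2.27 to 6.10 CPM (median 4.78) and from 26.1 to 68.9 CPM (median 34.7). Every LPS library was above every unstimulated library of either genotype. Sgms2 changed by 2.86 on the log2 scale (SE 0.33, adjusted p = 2e-07) in wildtype and 3.22 (SE 0.33, adjusted p = 2.6e-08) in AhR-deficient BMDMs. None of the searched motifs was in the Sgms2 window shown, and 2 of the 6 windows of Sgms2 held the AP-1 site.

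Sgms1, the sphingomyelin synthase of the Golgi, went from 30.5 ± 6.996 to 41.0 ± 8.03 CPM in wildtype (log2 fold change 0.43, adjusted p = 0.049) and had a log2 fold change of 0.23 (adjusted p = 0.297) in AhR-deficient BMDMs. Per length, Sgms2 thereby made up 31.5% ± 9.24 of the 2 sphingomyelin synthases in wildtype unstimulated and 68.8% ± 11.8 in wildtype LPS libraries. In AhR-deficient libraries its share was 16.5% ± 5.64 and 58.3% ± 13.9. The shares overlapped slightly between the wildtype groups and not between the AhR-deficient groups. Ugcg, the glucosylceramide synthase, fell by 0.63 on the log2 scale in wildtype (46.4 ± 3.67 to 30.1 ± 6.89 CPM, adjusted p = 0.0011), and in AhR-deficient BMDMs its value of -0.35 had an adjusted p of 0.051.

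Cerk (ENSMUSG00000035891), the kinase that makes ceramide-1-phosphate, fell in both genotypes but passed the 2-fold minimum only in AhR-deficient BMDMs. In wildtype BMDMs, Cerk ran from 64.3 to 117 CPM (median 114) without stimulation and from 48.5 to 84.0 CPM (median 74.1) after LPS. In AhR-deficient BMDMs, Cerk ran from 108 to 165.0 CPM (median 148) and from 35.1 to 72.2 CPM (median 59.2). The wildtype groups overlapped because library 33 was far below the other unstimulated libraries, and the AhR-deficient groups did not overlap. Cerk changed by -0.61 on the log2 scale (SE 0.19, adjusted p = 0.012) in wildtype and -1.42 (SE 0.19, adjusted p = 1.4e-06) in AhR-deficient BMDMs.

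Of the sphingomyelinases and their relatives, Smpdl3b (ENSMUSG00000028885, chr4:132732966-132757252), a membrane-anchored phosphodiesterase known to dampen Toll-like receptor signalling, had the smallest adjusted p of the 34 genes. In wildtype BMDMs, Smpdl3b ran from 92.1 to 160.3 CPM (median 96.0) without stimulation and from 511 to 874 CPM (median 607) after LPS. In AhR-deficient BMDMs, the levels were 136 to 181 CPM (median 162.5) and 727 to 1045 CPM (median 792). The lowest LPS library was several times above the highest unstimulated library in both genotypes. Smpdl3b changed by 2.57 on the log2 scale (SE 0.16, adjusted p = 1.3e-11) in wildtype and 2.35 (SE 0.16, adjusted p = 2e-11) in AhR-deficient BMDMs.

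Smpd2 (ENSMUSG00000019822), a neutral sphingomyelinase, fell. In wildtype BMDMs, Smpd2 ran from 14.7 to 25.1 CPM (median 17.4) without stimulation and from 9.08 to 15.4 CPM (median 9.80) after LPS. In AhR-deficient BMDMs, Smpd2 ran from 15.4 to 32.2 CPM (median 20.6) and from 6.10 to 13.8 CPM (median 10.7). Libraries 33, 37, 19 and 39 were the highest of their groups, and the groups overlapped only in wildtype. Smpd2 changed by -0.67 on the log2 scale (SE 0.22, adjusted p = 0.019) in wildtype, under the 2-fold minimum, and -1.15 (SE 0.23, adjusted p = 0.00017) in AhR-deficient BMDMs. Smpd2 shares 20.3% of its exon bases with Mical1 on the other strand.

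The lysosomal sphingomyelinase Smpd1 had group means of 25.04 to 27.8 CPM and did not pass the adjusted p. Smpdl3a, a secreted relative, went from 340.3 ± 144 to 179 ± 31.6 CPM in AhR-deficient BMDMs (log2 fold change -0.93, adjusted p = 0.011), and in wildtype its log2 fold change was -0.37 with an adjusted p of 0.349. Ceramidases, which release sphingosine from ceramide, gave no DEG. The acid ceramidase Asah1 had means of 504 to 577 CPM. Acer3, an alkaline ceramidase, had a log2 fold change of -0.96 (adjusted p = 0.0043) in AhR-deficient and -0.55 (adjusted p = 0.105) in wildtype BMDMs. Acer2 stayed under a group mean of 0.4 CPM, with log2 fold changes of 1.23 and 1.64 that did not pass the adjusted p (0.177 and 0.065). Under some other settings ceramidases were DEGs after LPS in AhR-deficient BMDMs. Acer2 was so in DESeq2 and with Y-linked counts as a covariate. Acer3 was so with the block of library numbers as a factor and when scaled by total library size.

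In the lysosome, Galc (ENSMUSG00000021003, chr12:98202294-98259459), which cleaves galactosylceramide and psychosine, fell. In wildtype BMDMs, Galc ran from 17.3 to 37.1 CPM (median 29.2) without stimulation and from 4.97 to 19.3 CPM (median 9.01) after LPS. In AhR-deficient BMDMs, Galc ran from 31.5 to 45.1 CPM (median 37.4) and from 4.18 to 10.3 CPM (median 4.79). The wildtype groups overlapped by 1 LPS library above 1 unstimulated library, and the AhR-deficient groups lay far apart. Galc changed by -1.46 on the log2 scale (SE 0.29, adjusted p = 0.00027) in wildtype and -2.73 (SE 0.30, adjusted p = 8.2e-08) in AhR-deficient BMDMs.

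Gla, the alpha-galactosidase of globosides, rose by less than the 2-fold minimum, by 0.54 on the log2 scale in wildtype (adjusted p = 0.0076) and by 0.76 in AhR-deficient BMDMs (adjusted p = 0.0003). Psap, the precursor of the saposins that present sphingolipids to lysosomal enzymes, was the most abundant of the 35 genes per length, at a mean of 1756 RPKM in wildtype unstimulated libraries. Its means were 4818 ± 1120 CPM in wildtype unstimulated, 4150.0 ± 1620 in wildtype LPS, 7541 ± 2151 in AhR-deficient unstimulated and 5629 ± 2363 in AhR-deficient LPS libraries, and no comparison passed the adjusted p.

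Of the sphingosine kinases, which make S1P, Sphk1 was a DEG in both genotypes and Sphk2 in AhR-deficient BMDMs. Sphk1 (ENSMUSG00000061878, chr11:116530925-116536674), the inducible cytosolic kinase, ran in wildtype BMDMs from 2.94 to 5.61 CPM (median 3.99) without stimulation and from 11.9 to 37.6 CPM (median 18.6) after LPS. In AhR-deficient BMDMs, Sphk1 ran from 5.67 to 10.4 CPM (median 7.68) and from 14.1 to 24.6 CPM (median 17.7). Every LPS library was above every unstimulated library, and the unstimulated AhR-deficient libraries were all above the unstimulated wildtype ones. Sphk1 changed by 2.34 on the log2 scale (SE 0.26, adjusted p = 1.6e-07) in wildtype and 1.27 (SE 0.26, adjusted p = 0.00024) in AhR-deficient BMDMs. Scaled by total library size, which moves the median of all genes in this comparison from -0.03 to -0.52, the value in AhR-deficient BMDMs was 0.78 (adjusted p = 0.00501), under the 2-fold minimum.

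Sphk2 (ENSMUSG00000057342), the kinase found also in the nucleus and mitochondria, passed the DEG thresholds in AhR-deficient BMDMs. In wildtype BMDMs, Sphk2 ran from 13.7 to 34.4 CPM (median 29.04) without stimulation and from 29.7 to 62.3 CPM (median 43.9) after LPS. In AhR-deficient BMDMs, Sphk2 ran from 11.5 to 31.9 CPM (median 24.7) and from 36.7 to 72.5 CPM (median 57.6). Libraries 33, 38, 19 and 39 were the lowest of their groups, and the groups overlapped in wildtype only. Sphk2 changed by 0.74 on the log2 scale (SE 0.25, adjusted p = 0.023) in wildtype and 1.18 (SE 0.25, adjusted p = 0.00053) in AhR-deficient BMDMs. With total library size the latter was 0.68 (adjusted p = 0.0674). Sphk2 shares 21.9% of its exon bases with Dbp and Rpl18 on the other strand.

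Of the 2 genes of S1P removal tested, 1 was a DEG. Sgpp1 (ENSMUSG00000021054), the phosphatase that returns S1P to sphingosine, ran in wildtype BMDMs from 111 to 252 CPM (median 192) without stimulation and from 53.5 to 106 CPM (median 62.7) after LPS. In AhR-deficient BMDMs, Sgpp1 ran from 92.5 to 232 CPM (median 121) and from 42.6 to 86.4 CPM (median 67.2). The groups did not overlap in either genotype, and libraries 33 and 19 were the highest of theirs. Sgpp1 changed by -1.33 on the log2 scale (SE 0.26, adjusted p = 0.0002) in wildtype and -1.08 (SE 0.26, adjusted p = 0.0012) in AhR-deficient BMDMs. The latter was under the 2-fold minimum without libraries 33 and 19 together (-0.86, adjusted p = 0.00414) and without library 19 (-0.86), library 31 (-0.97) or library 32 (-0.98). Sgpl1, the lyase that cleaves S1P irreversibly, went from 360.1 ± 55.5 to 509 ± 59.8 CPM in wildtype (log2 fold change 0.50, adjusted p = 0.00058) and had a log2 fold change of 0.09 (adjusted p = 0.513) in AhR-deficient BMDMs.

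Spns2 (ENSMUSG00000040447, chr11:72451638-72489904), an exporter of S1P, had group means of 0.406 to 1.36 CPM. In wildtype BMDMs, Spns2 ran from 0.476 to 0.953 CPM (median 0.679) without stimulation and from 0.360 to 1.67 CPM (median 0.866) after LPS. In AhR-deficient BMDMs, Spns2 ran from 0.787 to 1.97 CPM (median 1.32) and from 0.138 to 0.800 CPM (median 0.323). The wildtype groups overlapped widely, and in AhR-deficient BMDMs only library 39 reached into the unstimulated range. Spns2 had a log2 fold change of 0.45 (SE 0.42, adjusted p = 0.437) in wildtype and one of -1.75 (SE 0.43, adjusted p = 0.0018) in AhR-deficient BMDMs.

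Of the 3 S1P receptors among the 35 genes, S1pr1 rose, S1pr4 fell and S1pr2 was no DEG after LPS. S1pr1 (ENSMUSG00000045092, chr3:115710433-115715072), the receptor known for the exit of lymphocytes from lymphoid tissue, rose in both genotypes. In wildtype BMDMs, S1pr1 ran from 0.726 to 2.61 CPM (median 1.28) without stimulation and from 5.18 to 13.8 CPM (median 8.22) after LPS. In AhR-deficient BMDMs, S1pr1 ran from 0.0303 to 0.394 CPM (median 0.179) and from 0.686 to 3.42 CPM (median 1.80). The groups did not overlap within either genotype, and all 6 unstimulated AhR-deficient libraries were below all other libraries. S1pr1 changed by 2.66 on the log2 scale (SE 0.48, adjusted p = 8.3e-05) in wildtype and 3.30 (SE 0.51, adjusted p = 9e-06) in AhR-deficient BMDMs. Dendritic cell markers changed in both directions after LPS. Of the 7 dendritic cell markers tested, 4 rose and 2 fell in wildtype and 2 rose and 2 fell in AhR-deficient BMDMs. Of 6 endothelial and stromal markers tested, 2 rose in wildtype (Kdr and Pdgfrb) and 3 in AhR-deficient BMDMs (those and Cdh5), and of 6 mast cell and basophil markers 2 and 1 rose. The part of these cells in the result was not tested.

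S1pr4 (ENSMUSG00000044199, chr10:81497747-81500132), a receptor of blood and immune cells, fell in both genotypes. In wildtype BMDMs, S1pr4 ran from 14.1 to 24.0 CPM (median 21.1) without stimulation and from 1.71 to 5.28 CPM (median 2.06) after LPS. In AhR-deficient BMDMs, S1pr4 ran from 5.86 to 16.4 CPM (median 8.52) and from 0.384 to 2.4 CPM (median 1.24). Every unstimulated library, of either genotype, was above every LPS library. S1pr4 changed by -2.88 on the log2 scale (SE 0.38, adjusted p = 1.5e-06) in wildtype and -2.86 (SE 0.38, adjusted p = 1.2e-06) in AhR-deficient BMDMs. Neutrophil markers also moved with LPS, and of the 7 tested 3 fell in each genotype. In wildtype these were Ly6g, Elane and Retnlg, with means of 4.12, 4.07 and 0.670 CPM before LPS. The sum of the list, with a median of 2350.0 CPM before and 1230.0 CPM after LPS in wildtype and 376 and 203 CPM in AhR-deficient BMDMs, lay mostly in S100a8 and S100a9, which did not pass after LPS. The part of neutrophils in the result was not tested.

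S1pr2, the receptor with the highest group mean per length in each group, did not pass the adjusted p after LPS (0.31 in wildtype and 0.19 in AhR-deficient BMDMs on the log2 scale, adjusted p = 0.064 and 0.26). It made up 52.9% ± 5.11 of the summed RPKM of the 5 S1P receptor genes in wildtype unstimulated, 58.4% ± 5.75 in wildtype LPS, 66.6% ± 8.34 in AhR-deficient unstimulated and 53.6% ± 19.6 in AhR-deficient LPS libraries. S1pr4 held 42.8% ± 5.30 and then 5.10% ± 1.84 in wildtype, and 30.9% ± 9.17 and then 2.94% ± 1.99 in AhR-deficient libraries. S1pr3, which is not among the 35 genes, took 1.80% and then 22.7% in wildtype, and 1.95% and then 40% in AhR-deficient libraries. S1pr1 stayed at 13.8% or less in every group mean.

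**Figure D3:**
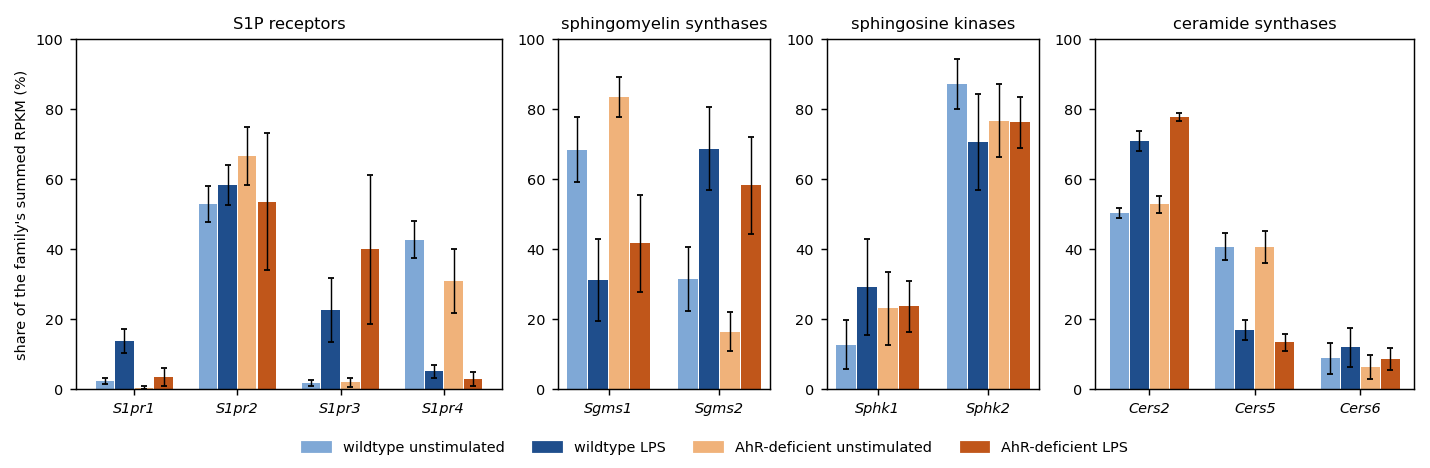
Mean share (%) of each family's summed RPKM by group, with SD bars over 6 libraries, for S1P receptors, sphingomyelin synthases, sphingosine kinases and ceramide synthases. S1pr5 and Cers4, at under 0.1%, are not drawn. After LPS the receptor share of S1pr4 is 5.10% or less, and Sgms2 and Cers2 hold 58.3% or more of their families in both genotypes.

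The difference between the LPS effects of the genotypes was tested directly as an interaction. Of the 34 genes, 1 passed an adjusted p of 0.05, against 4.30% of all genes (2.34% lower and 1.95% higher). Spns2 had an LPS effect lower by 2.19 on the log2 scale in AhR-deficient than in wildtype BMDMs (difference -2.19, SE 0.60, 95% interval -3.36 to -1.02, adjusted p = 0.035). On the scale of log2(CPM + 0.5), its difference in the 3 blocks of library numbers was -1.95, -1.32 and -0.56. The call was lost when any 1 of 12 of the 24 libraries was left out, with differences between -2.23 and -1.94 and an adjusted p of up to 0.075, and without libraries 33 and 19 together the adjusted p of -2.18 was 0.0503, while Sgpl1 passed (-0.50, adjusted p = 0.043).

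Unadjusted p values of at most 0.05 in the interaction test were found for 5 genes, all with a negative difference of LPS effects (AhR-deficient minus wildtype). Of all genes 13.5% had such a p (7.50% with a negative difference). Besides Spns2 these were Galc (difference -1.27, adjusted p = 0.084), Cerk (-0.81, adjusted p = 0.097), Sphk1 (-1.07, adjusted p = 0.103) and Sgpl1 (-0.41, adjusted p = 0.166). Galc and Cerk passed with the block of library numbers as a factor (-1.27, adjusted p = 0.0147, and -0.83, adjusted p = 0.0128) and in DESeq2. Scaled by total library size, Sphk1 (-1.22, adjusted p = 0.0218) and Sgpl1 (-0.55, adjusted p = 0.0472) passed. The 95% interval ran from -2.06 to -0.48 for Galc, from -1.33 to -0.29 for Cerk and from -1.77 to -0.37 for Sphk1. For Smpd2 and Sphk2, DEGs in AhR-deficient BMDMs alone, the differences of -0.48 (adjusted p = 0.635) and 0.44 (adjusted p = 0.789) did not pass. With the slope on gene length as a covariate, 12 of the 34 genes passed, where 17.3% of all genes did.

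The genotypes were also compared at each condition. S1pr1 was the only DEG of the 34 genes in either comparison, where 4.48% of all genes were DEGs without stimulation (3.57% lower and 0.916% higher in AhR-deficient BMDMs) and 8.36% after LPS (6.19% lower and 2.17% higher). S1pr1 was lower in AhR-deficient BMDMs without stimulation, with a mean of 0.190 ± 0.132 against 1.42 ± 0.673 CPM (SD, n = 6; log2 fold change -2.89, SE 0.50, adjusted p = 0.00043). After LPS it was lower too, at 1.87 ± 1.11 against 8.96 ± 3.27 CPM (log2 fold change -2.26, SE 0.47, adjusted p = 0.0016). The genotypes did not overlap in either condition. Without stimulation this held for 5 of the 34 genes and for 5.15% of all genes, and after LPS for S1pr1 alone and for 7.11% of all genes. Without libraries 33 and 19 the log2 fold changes of S1pr1 were -2.75 and -2.26, with both calls kept.

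Markers of other cells also differed between the genotypes. Of the 7 dendritic cell markers tested, 4 were lower and 2 (Clec9a and Batf3) higher in unstimulated AhR-deficient BMDMs. After LPS 4 were lower and 0 higher, and Flt3, Ccr7 and Cd207 were lower in both conditions. Flt3 had means of 1.55 and 18.6 CPM in wildtype and 0.0159 and 0.0397 CPM in AhR-deficient libraries, and Cd207 had no count in the AhR-deficient LPS group. The summed dendritic cell markers ran from 39.9 to 117 CPM in wildtype unstimulated, 576 to 2480.0 in wildtype LPS, 19.8 to 27.8 in AhR-deficient unstimulated and 142 to 919 in AhR-deficient LPS libraries. Neutrophil markers were lower in AhR-deficient BMDMs as well, 6 of 7 without stimulation and 4 of 7 after LPS. Of the 6 mast cell and basophil markers, 3 were lower without stimulation and 4 after LPS, Cpa3, Mcpt8 and Gata2 in both, with summed medians of 10.7 and 22.8 CPM in wildtype and 2.3 and 3.77 CPM in AhR-deficient BMDMs. Of the 6 endothelial and stromal markers tested, Pecam1 was lower without stimulation (3.59 against 16.3 CPM) and none passed after LPS, and Tek had no count in 3 of the 4 groups. Their summed medians were 16.2 and 25 CPM in wildtype and 4.76 and 11.3 CPM in AhR-deficient BMDMs. What part any of these cells had in the S1pr1 result was not tested.

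Genotype differences under the 2-fold minimum passed the adjusted p for 2 more genes in each condition. Without stimulation, where 6.12% of all genes passed, Smpdl3b (log2 fold change 0.61, adjusted p = 0.013) and Sphk1 (0.97, adjusted p = 0.019) were higher in AhR-deficient BMDMs. After LPS, where 12.6% of all genes passed, Gla was higher (0.64, adjusted p = 0.0057) and S1pr2 lower (-0.39, adjusted p = 0.046). S1pr4 differed by -1.05 on the log2 scale without stimulation (adjusted p = 0.092) and by -1.02 after LPS (adjusted p = 0.068), which did not pass. Galc had a log2 fold change of -0.86 after LPS (adjusted p = 0.053). The genotype and LPS comparisons share libraries, so these values are not independent of the LPS effects above.

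A further 39 genes of the sphingolipid pathway, from ceramide synthesis to complex glycosphingolipids and S1P receptors, were counted beside the 35, and 30 of them were tested. LPS gave 8 DEGs among them in wildtype (6 higher, 2 lower) and 13 in AhR-deficient BMDMs (8 higher, 5 lower). These were 26.7% and 43.3% of the genes tested, against 24.9% and 30.8% of all genes, so the share in wildtype was near that of all genes. Without stimulation 4 were lower in AhR-deficient BMDMs and none was higher, and after LPS 4 were lower and 1 higher, which were 13.3% and 16.7% of the genes tested, against 4.48% and 8.36% of all genes. Named are the DEGs whose mean over the 24 libraries was 1 CPM or more.

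The S1P receptor S1pr3 rose in both genotypes, from a mean of 1.46 ± 0.539 to 20.9 ± 8.2 CPM in wildtype (log2 fold change 3.84, adjusted p = 3.7e-06) and from 1.06 ± 0.699 to 39.3 ± 32.7 CPM in AhR-deficient BMDMs (5.20, adjusted p = 7.1e-08). The lipid phosphate phosphatases Plpp1 and Plpp3, which can remove the phosphate of extracellular S1P, rose too. Their log2 fold changes were 2.04 and 1.65 for Plpp1 and 2.66 and 2.64 for Plpp3, in wildtype and AhR-deficient BMDMs in turn. Smpd5, a further sphingomyelinase, rose by 1.6 and 2.38 on the log2 scale and was lower in AhR-deficient than wildtype BMDMs without stimulation (-1.85) and after LPS (-1.07), the last call being lost without any 1 of 5 libraries (-0.77 without library 37).

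Of the ganglioside synthases, St3gal5 and St8sia1 differed between the genotypes in at least 1 condition. St3gal5, the GM3 synthase, rose from 4.72 ± 0.859 to 29.5 ± 13.3 CPM in wildtype (log2 fold change 2.65, adjusted p = 5.6e-07) and from 2.74 ± 0.644 to 113 ± 45.0 CPM in AhR-deficient BMDMs (5.36, adjusted p = 2.7e-11). The interaction of 2.72 passed (adjusted p = 0.00064), and after LPS St3gal5 was higher in AhR-deficient BMDMs (1.93, adjusted p = 0.00013). St8sia1, the GD3 synthase, was at 3.50 and 1.17 CPM in wildtype and at 0.237 and 0.0289 CPM in AhR-deficient libraries, lower by 3.89 and 5.19 on the log2 scale. The AhR-deficient LPS libraries held 9 counts of St8sia1 in all, and 3 of the 6 held none, so folds that use this group depend on the prior count. Its decrease after LPS passed in AhR-deficient BMDMs (-2.89, adjusted p = 0.0045), and in wildtype (-1.58, adjusted p = 0.045) the call was lost without any 1 of 15 libraries.

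A4galt, which makes globotriaosylceramide, was at 3.20 and 2.12 CPM in wildtype, and rose from 0.0334 to 0.575 CPM in AhR-deficient BMDMs (log2 fold change 4.08, adjusted p = 9.7e-05; interaction 4.67, adjusted p = 0.0046). It was lower in AhR-deficient BMDMs without stimulation (-6.55, adjusted p = 6.7e-06). The 6 libraries of that group held 12 counts of A4galt in all, and 3 held none. The values of -6.55, 4.08 and 4.67, which all use this group, therefore depend on the prior count. Its genotype difference after LPS (-1.88, adjusted p = 0.046) was lost without any 1 of 15 libraries. B4galt6, a lactosylceramide synthase, was lower in unstimulated AhR-deficient BMDMs (-1.17, adjusted p = 0.0003), and B4galnt1, the GM2 synthase, fell after LPS in AhR-deficient BMDMs (-1.63, adjusted p = 0.0035).

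Of the genes of GM2 breakdown, Hexa was a DEG after LPS in AhR-deficient BMDMs and Gm2a in both genotypes, all lower. Hexa, the alpha subunit of beta-hexosaminidase, fell in AhR-deficient BMDMs from 966 ± 199.8 to 348 ± 45.1 CPM after LPS (log2 fold change -1.47, adjusted p = 1.1e-07). In wildtype its mean was lower after LPS too, at 427.0 against 703.9 CPM, although Hexa was no DEG there. All wildtype unstimulated libraries (583.9 CPM or more) were above all wildtype LPS libraries (581.2 CPM or less). Gm2a, the GM2 activator, fell by 1.51 on the log2 scale in wildtype (adjusted p = 0.0099) and by 1.19 in AhR-deficient BMDMs (adjusted p = 0.033), the latter call being lost without any 1 of 7 libraries.

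**Figure D4:**
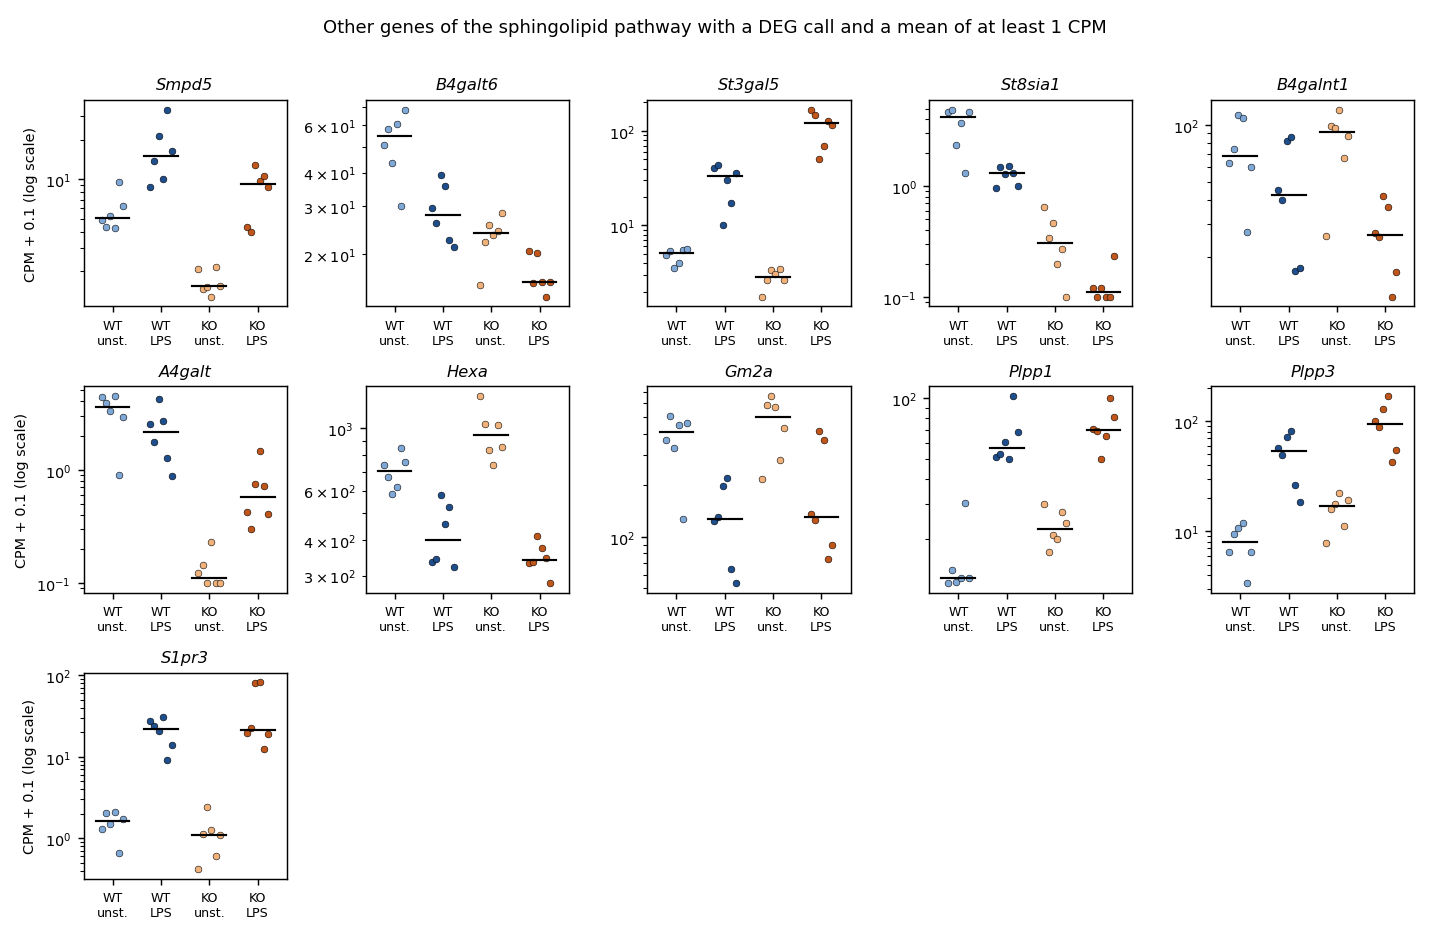
CPM + 0.1 of each library on a log axis for the 11 further pathway genes that were DEGs in at least 1 comparison and averaged 1 CPM or more, by group, with medians as bars. S1pr3, Plpp1, Plpp3 and St3gal5 are higher after LPS in both genotypes, and the medians of St8sia1 and A4galt are lower in AhR-deficient than in wildtype libraries.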

How the data were processed

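The authors aligned read pairs from poly(A) RNA, prepared with a directional kit, to mm10 with GSNAP. Uniquely aligned reads were counted per gene of Ensembl release 98 with featureCounts 2.0.1. The deposited values are these raw counts, whole numbers without normalization. The 92 spike-in sequences, with 1 count in all, were left out. GENCODE M21 gave symbols for 55240 of the 55421 genes, and RefSeq gave the promoters.

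In edgeR 4.0.16 under R 4.3.3, all 24 libraries were fitted together, 1 coefficient for each group, after TMM scaling and filterByExpr, which left 16593 genes. Contrasts were tested by the quasi-likelihood F-test with robust estimation, and p-values were adjusted by Benjamini-Hochberg over these genes. A DEG needed a log2 fold change of 1 or more in size and an adjusted p no higher than 0.05. The interaction had no minimum fold. The code was tested on simulated counts. Fold change intervals cover the spread between libraries. Alternatives were DESeq2 1.42.0, limma 3.58.1 (voom), other scalings, filters and covariates, and each library left out.

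The 35 genes, the other lists and the tests were chosen with earlier results of these data known. Single libraries are described for genes that were DEGs or passed the interaction. Further pathway genes are named where they were DEGs averaging 1 CPM or more, and promoters are shown where the change in wildtype was largest. A further pathway gene of the list is not reported here, nor counted in it. Libraries carry the numbers of their titles. Tables were made in Python 3.11.15 (pandas 2.3.3, numpy 2.4.6, scipy 1.17.1) and figures in matplotlib 3.10.9.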

Additional observations from a re-analysis of the deposited data

Results flagged for a closer look

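In groups of 6 libraries, 1 library lay far from the other 5 by Dixon's test for 14 of 136 combinations of gene and group, where chance gives about 1 in 20. Library 33 (wildtype unstimulated) accounted for 8 of them: Kdsr at 8.15 CPM, Cers4 at 0.114 CPM, Cers6 at 18.02 CPM and Cerk at 64.3 CPM were below the rest of the group, and Cers2 at 225.9 CPM, Degs1 at 501 CPM, Smpdl3a at 539 CPM and Smpdl3b at 160.3 CPM were above it. Library 19 (AhR-deficient unstimulated) accounted for 4: Sgms2 at 2.27 CPM, Cerk at 108 CPM and Sphk2 at 11.5 CPM were low, and Gla at 140.0 CPM was high. Library 25 was high for Sgms2 in wildtype unstimulated BMDMs, at 13.7 CPM, and library 38 for Acer2 in wildtype LPS BMDMs, at 1.52 CPM. The part of the libraries' slope on gene length in these values was not tested.

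The LPS effect of Spns2 differed between the genotypes by -2.19 on the log2 scale (AhR-deficient minus wildtype), past the interaction test of edgeR with an adjusted p of 0.035, at group means of 0.406 to 1.36 CPM.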

How the results depend on the processing

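Of 170 results (34 genes in 5 comparisons), 27 passed their thresholds, and 22 of these did so under every one of the 12 other settings that tested them and without any 1 of the 24 libraries; no result that passed changed sign. Values of results that had not passed changed sign 61 times over the other settings and 98 times over the libraries left out. Counts of genes called moved as follows, with the percentage of all tested genes that were called under the same setting in brackets. LPS in wildtype gave 10, 11 with total library size (Smpd2 added) and 18 without a minimum fold, with 9 to 10 without 1 library and 9 without libraries 33 and 19 (an alternative chosen after seeing the data). LPS in AhR-deficient BMDMs gave 14 (30.8%), with 13 to 19 under the other settings (19.1% to 44.6%) and 14 to 17 without 1 library. With total library size (36.9%) the split was 3 higher and 11 lower, not 5 and 9. The interaction gave 1 (4.30%), but 3 with DESeq2 (6.78%), total library size (4.83%) or block of library numbers as a factor (7.24%). It gave 12 with the length slope (17.3%) and 0 to 3 without 1 library. In edgeR with a mean of at least 1 CPM, which leaves out Spns2, it gave 0 (5.49%), with 4 at an unadjusted p of at most 0.05. With no filter it gave 0 (1.75%), with 5 at that p. The genotype effect without stimulation gave 1 (4.48%), but 2 with DESeq2 (5.74%), limma-voom (4.71%), the block factor (5.62%), total library size (4.80%) or the Y-linked covariate (4.41%). It gave 3 with the length slope (6.60%), only the libraries compared (4.17%) or no minimum fold (6.12%), and 1 to 2 without 1 library. The added genes were S1pr4, Sphk1 and Smpdl3b. After LPS the genotype effect gave 1 (8.36%), but 2 with DESeq2 (10.0%), limma-voom (8.64%) or the block factor (10.0%). It gave 3 with the length slope (12.2%) or no minimum fold (12.6%), 4 with total library size (9.56%) and 1 to 3 without 1 library.

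Total library size moved the median log2 fold change of all genes from 0.03 to -0.31 (LPS in wildtype), -0.03 to -0.52 (LPS in AhR-deficient), -0.05 to -0.18 (interaction) and -0.05 to -0.26 (genotype after LPS). It changed the split of DEGs from 2186 higher and 1951 lower to 1622 and 3163 in the first and from 2504 and 2601 to 1730 and 4398 in the second. No paired analysis was run, because no label says which libraries share an animal, and a pairing by place within the blocks was not fitted. The 3 blocks of library numbers, fitted as a factor, added Galc and Cerk (interaction), Acer3 (LPS in AhR-deficient, -1.01), Sphk1 (genotype without stimulation, 1.01) and Spns2 (genotype after LPS, -1.32). Depth limits Spns2, S1pr1, Cers4, Acer2 and Sgpp2, at or under about 1 CPM in at least 1 group.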
